A study of Homo sapiens with 6 samples.

Results

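The chaperone genes described here are 37 named genes of the cytosolic and mitochondrial protein folding machinery, taken by symbol from a table of 26475 genes. They comprise 2 heat shock factors, 6 HSP70 and HSP110 chaperones, 4 J-domain cochaperones, 4 BAG and other HSP70 cochaperones, 2 HSP90 chaperones, 7 HSP90 cochaperones, 1 small heat shock protein, 7 subunits of the CCT ring and 4 mitochondrial chaperones. They were measured by RNA-seq in HepG2, a human liver cancer cell line that the labels call HCC. TAF2 belongs to TFIID, the complex that opens transcription at promoters. Cells made to express it were compared with cells expressing eGFP, a fluorescent reporter that serves as the control. Each group had 3 libraries, made from total RNA with an Illumina TruSeq kit. The vector, its promoter and whether a line was 1 clone are details not given in the sources used here. Nor do the labels call the replicates separate cultures, and p-values therefore cover only the spread among these 6 libraries, possibly a technical one.

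Total counts ranged from 22276308 to 28024004 per library, and the 37 genes had between 438 and 109797 counts in any library. Levels are in CPM, the count of a gene divided by the scaled library total and multiplied by 1000000. Of the 8 hepatocyte markers, each had at least 62.1 CPM in every library, and their sum was 48168 to 49656 CPM with eGFP and 38604 to 40421 CPM with TAF2. PTPRC, DCN, LUM and KDR, which mark leukocytes, fibroblasts and endothelium, were at 0 in all 6 libraries, and the endothelial list summed to at most 1.08 CPM. The leukocyte list summed to 1940 to 2057 CPM with eGFP and 2270 to 2322 CPM with TAF2, nearly all of it LYZ, and the fibroblast list to 8.14 to 9.22 and 20.4 to 21.8 CPM, nearly all of it PDGFRB. The part of these genes in the results was not tested. In such bulk samples a change in the number of cells of a kind and a change in RNA per cell cannot be told apart. TAF2 itself was at 35.8, 40.4 and 37.5 CPM in the eGFP libraries and at 50.1, 48.3 and 47.4 CPM in the TAF2 libraries, a 1.28-fold difference.

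Molecular chaperones bind unfolded or partly folded proteins and release them in cycles driven by ATP. HSP70 proteins take up nascent chains that J-domain proteins deliver, nucleotide exchange factors such as the HSP110 and BAG proteins reset them, and STIP1 hands clients on to HSP90. The CCT ring folds actin and tubulin inside a closed chamber, while HSPD1 with its lid HSPE1 forms a folding chamber in the mitochondrial matrix. HSF1, the main heat shock factor, is held inactive by chaperones and on proteotoxic stress binds heat shock elements, inverted repeats of the unit GAA, in the promoters of many of these genes. In hepatocytes this machinery serves the folding of cytosolic and mitochondrial proteins.

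Heat shock elements were read from RefSeq promoter windows (GRCh38.p14, 250 bases before to 50 bases after each start). They are shown because they are the regulatory feature by which many of the genes are grouped. Windows were found for 34 of the 37 genes. A run of 3 units was searched as GAANNTTCNNGAA or TTCNNGAANNTTC, which are each other's reverse complement, so that both strands are covered, and runs may overlap. It was present in 7 of the 34 genes (20.6%), against 0.608% of the 27305 genes with a window. The 7 were HSPD1, HSP90AB1, HSP90AA1, HSPA8, DNAJA1, DNAJB6 and CHORDC1. A pair of units, GAANNTTC or TTCNNGAA, was present in 18 of the 34 (52.9%), against 16.2% of all genes. Below, capitals mark the run of units with the bases between them, 5′ to 3′ on the strand of the gene, with positions counted from the start of transcription. The HSP90AB1 stretch is chr6:44247763-44247858 on the plus strand and holds 2 runs of 3 units, beginning at -165 and -112. HSP90AA1 is chr14:102087112-102087140 (minus strand, run at -88), HSPA8 has 1 stretch at chr11:123062346-123062374 (minus, run at -230) and 1 at chr11:123062171-123062199 (minus, run at -55), and CHORDC1 is chr11:90223084-90223112 (minus, 3 overlapping runs from -60).
HSP90AB1: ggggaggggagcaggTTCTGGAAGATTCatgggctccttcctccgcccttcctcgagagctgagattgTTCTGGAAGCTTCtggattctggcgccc
HSP90AA1: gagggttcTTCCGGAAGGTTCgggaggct
HSPA8 at -230: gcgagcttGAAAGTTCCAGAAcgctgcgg
HSPA8 at -55: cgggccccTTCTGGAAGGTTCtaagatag
CHORDC1: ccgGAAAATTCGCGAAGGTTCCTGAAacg
DNAJB6: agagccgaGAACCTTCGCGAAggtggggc
HSPD1: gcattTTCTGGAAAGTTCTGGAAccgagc
The DNAJB6 stretch is chr7:157336865-157336893 (plus, run at -131). The HSPD1 stretch, chr2:197500062-197500090 (minus), lies upstream of the second of its starts, with runs at -245 and -240. The HSP90AA1, CHORDC1 and HSPD1 stretches and the HSPA8 stretch nearer the start also lie in annotated UTRs of GENCODE transcripts. Of the other HSPA8 stretch 7 bases do, while those of HSP90AB1 and DNAJB6 do not. These 6 genes include 3 that were higher, 1 that was lower and 2 that were not called, as described below. The HSPA1A stretch at chr6:31815426-31815455 and the HSPA1B stretch at chr6:31827622-31827651 (both plus) hold a pair of units, and the DNAJB1 stretch, chr19:14518422-14518489 (minus), holds 2 such pairs.
HSPA1A: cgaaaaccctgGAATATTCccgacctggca
HSPA1B: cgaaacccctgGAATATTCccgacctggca
DNAJB1: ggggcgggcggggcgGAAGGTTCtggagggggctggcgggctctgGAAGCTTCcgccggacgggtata

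Most chaperone genes were slightly higher with TAF2. All 37 were expressed well enough to be tested. At an adjusted p of 0.05 (edgeR's quasi-likelihood test, Benjamini-Hochberg over 12902 genes), 25 were higher, 3 were lower and 9 were not called. Over all tested genes 43.0% were called, 20.6% of genes higher and 22.4% lower. Among the other 7544 genes within the same range of mean level the shares were 26.7% and 24.6%. The median log2 fold change of the 37 was 0.11, against -0.003 over all tested genes. The changes were small: 0 of the 37 exceeded 1.5-fold, a size that 867 called genes reached (15.6% of those called), and 5 exceeded 1.2-fold. The share of all tested genes that exceeded 1.2-fold was not computed. Their median absolute log2 fold change, 0.12, was close to the 0.13 of all tested genes. The groups did not overlap for 29 of the 37 genes (50.6% of all tested genes): in 26 every TAF2 library was above every eGFP library (24.5% of all), in 3 every one was below (26.1%), and 8 overlapped. Together the 37 genes made up 1.58% ± 0.0196 of counts with eGFP and 1.76% ± 0.0175 with TAF2 (SD, n = 3 each). Tested against a 1.2-fold difference in place of none, 4 of the 37 were called, all higher: HSPB1, HSPA1A, HSPA1B and HSPH1. That test called 1243 of all 12902 tested genes, 467 higher and 776 lower.

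**Figure D1:**
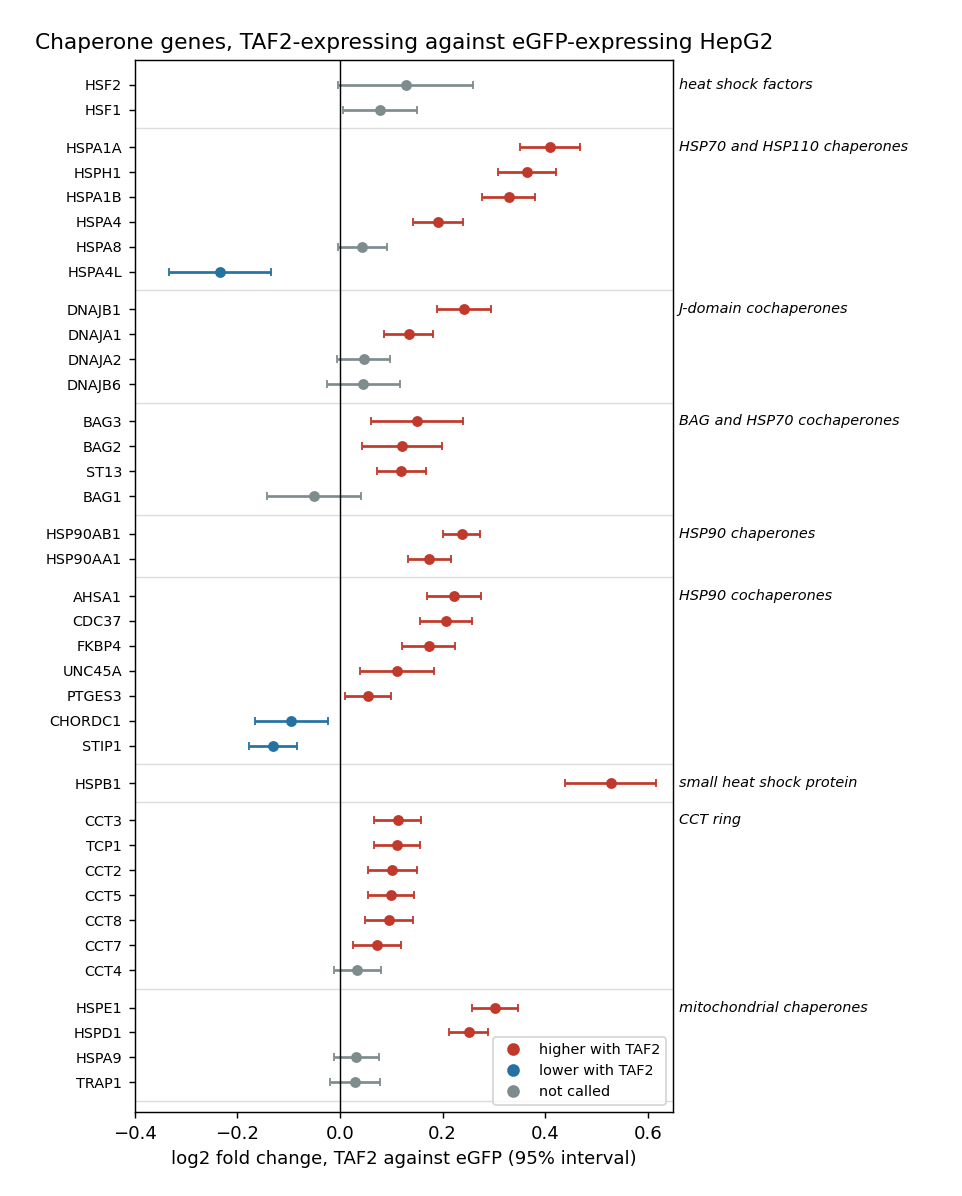
Log2 fold change of each of the 37 chaperone genes, TAF2 against eGFP, on the horizontal axis, by functional group on the vertical axis. Points are edgeR estimates, bars are 95% intervals, and colours show whether a gene was higher (25), lower (3) or not called (9). HSPB1 stands furthest to the right, and the 3 lower genes are HSPA4L, STIP1 and CHORDC1.

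The heat shock factors themselves were not called. HSF1 was at 76.1, 72.8 and 76.8 CPM with eGFP and at 82.3, 76.8 and 79.5 CPM with TAF2. The groups overlapped by a narrow margin. Its log2 fold change was 0.08 (95% interval 0.007 to 0.15, edgeR adjusted p = 0.0704). HSF1 overlaps DGAT1 on the genome, which is expressed at a like level (64.3 CPM) and fell by 0.30 on the log2 scale, and without known strand reads of such a pair cannot be told apart. HSF2, a related factor that can form mixed trimers with HSF1, was the lowest of the 37 genes. It ranged from 17.7 to 19.7 CPM with eGFP and from 19.0 to 21.8 CPM with TAF2, a log2 fold change of 0.13 (95% interval -0.003 to 0.26, edgeR adjusted p = 0.110). Some alternatives called them: HSF1 passed without TAF2 replicate 2 (edgeR adjusted p = 0.0354), with upper-quartile scaling (0.0325) and with all genes kept (0.0395), and HSF2 passed without eGFP replicate 2 (0.0409) or without TAF2 replicate 1 (0.0465).

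Among the HSP70 chaperones the stress-inducible genes rose and the constitutive gene was not called. HSPA1A, an inducible cytosolic HSP70, was at 114, 109 and 109 CPM with eGFP and at 151, 147 and 143 CPM with TAF2. HSPA1B, its near-identical neighbour, was at 181, 193 and 186 CPM with eGFP and at 236, 237 and 230 CPM with TAF2. Every TAF2 library was above every eGFP library for each of them. The log2 fold changes were 0.41 (SE 0.029, edgeR adjusted p = 1.76e-15) and 0.33 (SE 0.026, edgeR adjusted p = 3.29e-14). Their transcripts share 71.3% of the 50-base windows of HSPA1A, so the split of reads between them is an estimate. Added together they went from 297 ± 4.27 to 381 ± 7.15 CPM (n = 3 each, SD), or 0.36 on the log2 scale with an SE of 0.023, and this sum does not depend on the split between them. HSPA8, the constitutive cytosolic HSP70, was at 1320, 1374 and 1274 CPM with eGFP and at 1349, 1343 and 1396 CPM with TAF2. Its groups overlapped, and its log2 fold change was 0.04 (95% interval -0.004 to 0.09, edgeR adjusted p = 0.139). It was called without eGFP replicate 2, its highest eGFP library (log2 fold change 0.08, edgeR adjusted p = 0.00171). It was also called with upper-quartile scaling (0.0472) and with all genes kept (0.0298).

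The log2 ratio of HSPA1A plus HSPA1B to HSPA8 was -2.15 ± 0.037 with eGFP and -1.84 ± 0.057 with TAF2 (SD, n = 3 each). It was higher in each TAF2 library than in any eGFP library, by 0.32 on average (exact two-sided permutation test, p = 0.1, the smallest that 3 libraries against 3 can give, adjusted p = 0.1 over 4 such ratios).

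Of the HSP110 proteins, exchange factors for HSP70, HSPH1 and HSPA4 rose and HSPA4L fell. HSPH1, the heat-inducible HSP105, was at 159, 165 and 151 CPM with eGFP and at 206, 200 and 206 CPM with TAF2 (log2 fold change 0.36, SE 0.028, edgeR adjusted p = 2.87e-14). HSPA4 went from 251 ± 6.37 to 287 ± 4.43 CPM (n = 3 each, SD), with a log2 fold change of 0.19 and an SE of 0.024. HSPA4L, which lies on chromosome 4, was at 35.8, 39.6 and 36.9 CPM with eGFP and at 32.4, 30.8 and 32.2 CPM with TAF2. It fell by 0.23 on the log2 scale (SE 0.049, edgeR adjusted p = 0.000133), the largest fall among the 37. The log2 ratio of HSPH1 to HSPA4 was higher by 0.17 with TAF2, with no overlap between groups (exact two-sided permutation test, p = 0.1, adjusted p = 0.1 over the 4 ratios).

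**Figure D2:**
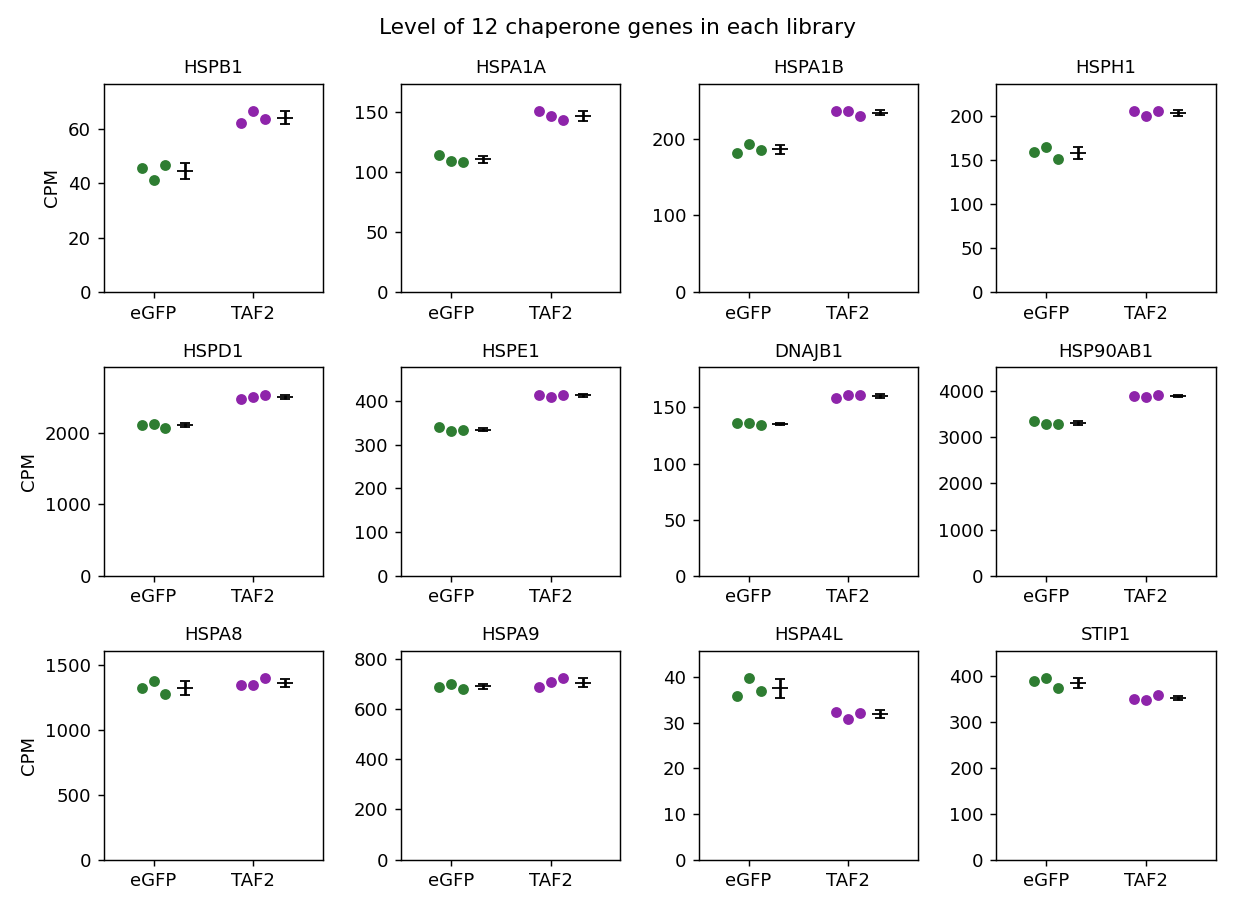
Level in CPM (vertical axes, from 0) of 12 chaperone genes in each of the 3 eGFP and 3 TAF2 libraries, with the mean and SD beside the points. The first 8 genes have TAF2 libraries above all eGFP libraries, HSPA8 and HSPA9 overlap, and HSPA4L and STIP1 have TAF2 libraries below all eGFP libraries.

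Of the J-domain proteins, which bring clients to HSP70 and start ATP hydrolysis, 2 of 4 rose. DNAJB1, the heat-inducible partner of HSPA1A, was at 136, 136 and 134 CPM with eGFP and at 158, 161 and 161 CPM with TAF2 (log2 fold change 0.24, SE 0.026, edgeR adjusted p = 2.71e-10). It overlaps TECR on the genome, a gene at 101 CPM with a log2 fold change of 0.003. DNAJA1 went from 224 ± 2.22 to 246 ± 2.96 CPM (n = 3 each, SD), a difference of 0.13 on the log2 scale. DNAJA2 (0.05, 95% interval -0.005 to 0.10) and DNAJB6 (0.05, 95% interval -0.03 to 0.12) were not called, although DNAJA2 passed without TAF2 replicate 1 (edgeR adjusted p = 0.0455). The DNAJB6 libraries did not overlap, with 67.5 to 67.9 CPM in the eGFP group and 69.0 to 70.6 CPM in the TAF2 group.

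BAG proteins release nucleotide and clients from HSP70, and ST13 slows that release. BAG3, which links HSP70 to selective autophagy and is a known target of HSF1, was at 41.1, 43.4 and 40.9 CPM with eGFP and at 48.0, 44.3 and 46.9 CPM with TAF2. The lowest TAF2 library was above the highest eGFP library, and the log2 fold change was 0.15 (SE 0.044, edgeR adjusted p = 0.00505). BAG2, an inhibitor of the ubiquitin ligase STUB1, rose by 0.12 (edgeR adjusted p = 0.0101), but was not called without eGFP replicate 1 (0.09, edgeR adjusted p = 0.0842). It overlaps RAB23, a gene at 18.1 CPM. ST13, at 289 ± 6.30 CPM in the eGFP and 314 ± 6.42 CPM in the TAF2 libraries (SD, n = 3 each), rose by 0.12. BAG1 had the only negative value among these 4 genes, -0.05 (95% interval -0.14 to 0.04), and was not called.

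Both cytosolic HSP90 genes rose, and their summed level rose by more CPM than that of any of the other groups of chaperones. HSP90AB1, the constitutive form, was at 3352, 3279 and 3276 CPM with eGFP and at 3895, 3864 and 3919 CPM with TAF2 (log2 fold change 0.24, SE 0.018, edgeR adjusted p = 1.48e-14). HSP90AA1, the inducible form, was at 1614, 1658 and 1581 CPM with eGFP and at 1867, 1768 and 1841 CPM with TAF2 (log2 fold change 0.17, SE 0.021, edgeR adjusted p = 1.08e-08). Neither gene had overlapping groups. Summed, the pair went from 4920 ± 56.5 to 5718 ± 74.4 CPM (SD, n = 3 each). The log2 ratio of HSP90AA1 to HSP90AB1 was -1.03 ± 0.040 with eGFP and -1.09 ± 0.034 with TAF2 (SD, n = 3 each; exact two-sided permutation test, p = 0.1, adjusted p = 0.1 over the 4 ratios).

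The HSP90 cochaperones went in both directions, 5 higher and 2 lower of 7. AHSA1, which activates the ATPase of HSP90, was at 150, 149 and 143 CPM with eGFP and at 170, 171 and 174 CPM with TAF2 (log2 fold change 0.22, SE 0.026, edgeR adjusted p = 2.92e-09). CDC37, which brings protein kinases to HSP90, rose by 0.21, FKBP4, an immunophilin of steroid receptor complexes, by 0.17 and UNC45A, a myosin chaperone, by 0.11. UNC45A overlaps HDDC3, a gene at 17.2 CPM. PTGES3, the p23 protein that stabilises closed HSP90, rose by 0.05 (edgeR adjusted p = 0.0433). That call was lost in 7 alternatives, among them those without eGFP replicate 3 (edgeR adjusted p = 0.177), TAF2 replicate 1 (0.0931) or TAF2 replicate 3 (0.0989).

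STIP1, the adaptor that joins HSP70 to HSP90, was at 388, 394 and 373 CPM with eGFP and at 350, 348 and 358 CPM with TAF2. It fell by 0.13 on the log2 scale (SE 0.023, edgeR adjusted p = 1.24e-05). CHORDC1, a zinc-binding HSP90 partner whose promoter holds the longest run of heat shock units shown above, was at 81.9, 85.5 and 80.7 CPM with eGFP and at 79.0, 78.9 and 74.4 CPM with TAF2. It fell by 0.09 (edgeR adjusted p = 0.0260). The CHORDC1 call was lost without eGFP replicate 1 (edgeR adjusted p = 0.0502), eGFP replicate 2 (0.173) or TAF2 replicate 3 (0.189), with upper-quartile scaling (0.0576) and with DESeq2 (DESeq2 adjusted p = 0.110).

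HSPB1, the small heat shock protein that holds unfolded proteins without ATP, had the largest change of the 37 genes. It was at 45.6, 41.1 and 46.8 CPM with eGFP and at 62.3, 66.7 and 63.6 CPM with TAF2. The lowest TAF2 library was well above the highest eGFP library. The fold change was 1.44 (95% interval 1.36 to 1.53, log2 fold change 0.53, SE 0.044, edgeR adjusted p = 3.42e-13).

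Of the 7 CCT subunits 6 rose, with log2 fold changes from 0.07 to 0.11, and CCT4 (0.03, 95% interval -0.01 to 0.08, edgeR adjusted p = 0.243) was not called. TCP1, the alpha subunit, was at 472, 478 and 455 CPM with eGFP and at 507, 507 and 504 CPM with TAF2 (log2 fold change 0.11, SE 0.022, edgeR adjusted p = 6.12e-05). TCP1 overlaps ACAT2, a gene at 192 CPM that fell by 0.18. CCT3 (0.11), CCT2 (0.10), CCT5 (0.10) and CCT8 (0.10) also rose, without overlap between groups. CCT7 (0.07, edgeR adjusted p = 0.00959) had overlapping groups, 540 to 574 CPM with eGFP and 569 to 595 CPM with TAF2, and was not called without eGFP replicate 3 (edgeR adjusted p = 0.0951) or TAF2 replicate 3 (0.0918). The 7 summed subunits went from 2835 ± 41.8 to 3017 ± 43.7 CPM (SD, n = 3 each), 1.06 times the eGFP level. CCT6A, the zeta subunit and not among the 37 genes, rose by 0.08 (edgeR adjusted p = 0.00338), a call lost without eGFP replicate 3 (0.0554).

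In mitochondria the HSP60 folding chamber rose and the HSP70 and HSP90 of the matrix were not called. HSPD1, the chamber, was at 2110, 2131 and 2075 CPM with eGFP and at 2472, 2506 and 2536 CPM with TAF2 (log2 fold change 0.25, SE 0.019, edgeR adjusted p = 1.01e-14). HSPE1, its lid, was at 339, 331 and 333 CPM with eGFP and at 414, 409 and 414 CPM with TAF2 (0.30 on the log2 scale, SE 0.022, edgeR adjusted p = 4.22e-15). The 2 genes start 105 bases apart on opposite strands of chromosome 2, and their promoter windows share 204 bases. Their log2 ratio fell by 0.05 with TAF2 (exact two-sided permutation test, p = 0.1, adjusted p = 0.1 over the 4 ratios), with no overlap between groups. HSPA9, the matrix HSP70 that pulls proteins in through the import channel, was at 690, 701 and 681 CPM with eGFP and at 688, 708 and 722 CPM with TAF2. Its groups overlapped (log2 fold change 0.03, 95% interval -0.01 to 0.08, edgeR adjusted p = 0.234). TRAP1, the mitochondrial HSP90, had a log2 fold change of 0.03 (95% interval -0.02 to 0.08, edgeR adjusted p = 0.351).

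**Figure D3:**
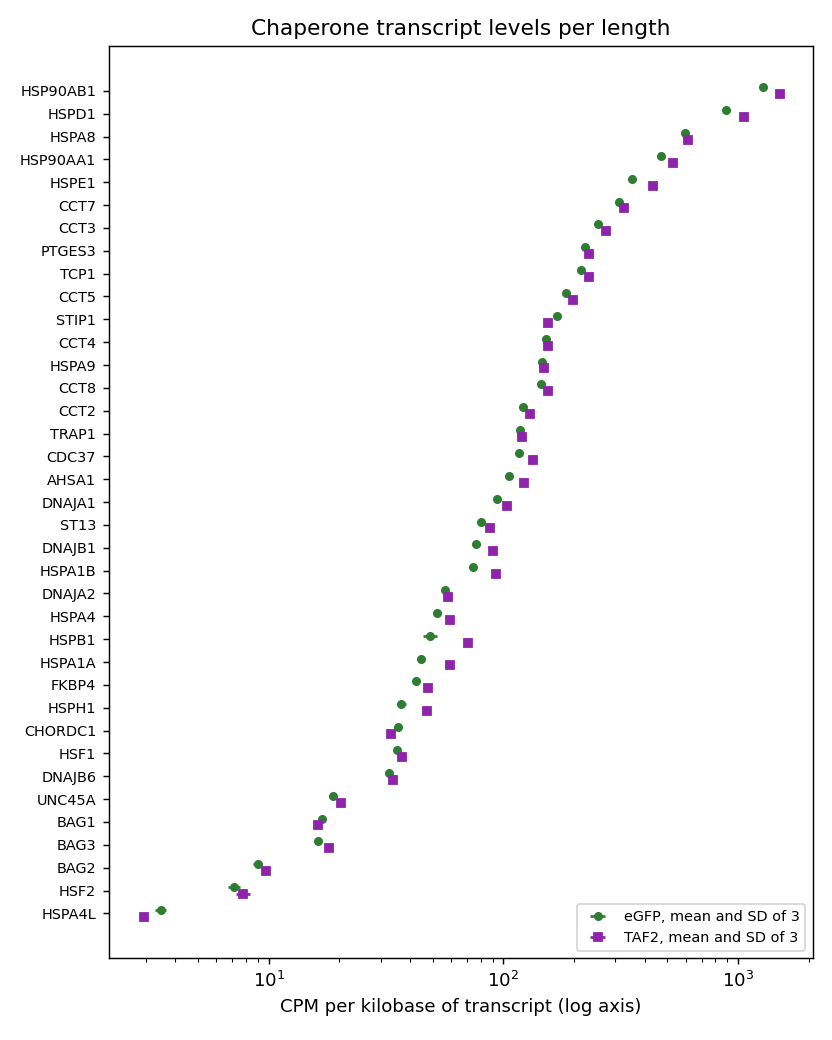
Level of the 37 chaperone genes in CPM per kilobase of transcript (horizontal log axis), mean and SD of 3 libraries in each group. HSP90AB1 and HSPD1 are the highest and HSPA4L and HSF2 the lowest in both groups.

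Per length of transcript, in CPM per kilobase, HSP90AB1 was the most abundant of the 37 genes at 1276 ± 16.7 with eGFP (SD, n = 3). HSPD1 (886 ± 11.8), HSPA8 (592 ± 22.5), HSP90AA1 (470 ± 11.2) and HSPE1 (352 ± 4.40) followed, and these neighbours in the order did not overlap. At the low end were HSF2 (7.14 ± 0.399) and HSPA4L (3.47 ± 0.183). The inducible HSPA1B (74.0 ± 2.35) and HSPA1A (44.5 ± 1.19) were thus far below the constitutive HSPA8. Lengths are means over the matched GENCODE transcripts, so the order depends on which isoforms these cells use.

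Chaperone genes were also set beside their neighbours on the chromosome. The tested genes within 5 Mb of each member had median log2 fold changes from -0.29 to 0.23. All 3 members that fell lie on chromosomes 4 and 11, whose tested genes had medians of -0.18 (413 genes) and -0.28 (720 genes). Around HSPA4L the median was -0.16 (14 genes), around STIP1 -0.29 (203 genes) and around CHORDC1 -0.29 (28 genes). STIP1 and CHORDC1 had thus fallen by less than their neighbours, and HSPA4L by more. HSPA8, also on chromosome 11, had a log2 fold change of 0.04 where its 66 neighbours had a median of -0.23. HSPD1 and HSPE1 lie where 94.7% of 38 neighbours had a positive log2 fold change, whether called or not. The median of these neighbours was 0.23, close to the 0.25 of HSPD1 and the 0.30 of HSPE1. The part of position in these results was not tested. For the genes with the largest rises the neighbours had medians of -0.03 around HSPB1, -0.03 around HSPA1A and HSPA1B, and 0.08 around HSPH1. In the same order, 42.2% of 64, 40.1% of 167 and 75.0% of 28 neighbours had a positive log2 fold change. Of the 37 members 34 were above the median of their neighbours, and the median difference over the 37 was 0.14. The share of all tested genes above their own neighbours was not computed, so this count has no background beside it. Outside chromosomes 4 and 11, 25 of 33 members were higher and 0 were lower, against 22.4% and 18.0% of the 11602 tested genes placed there.

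**Figure D4:**
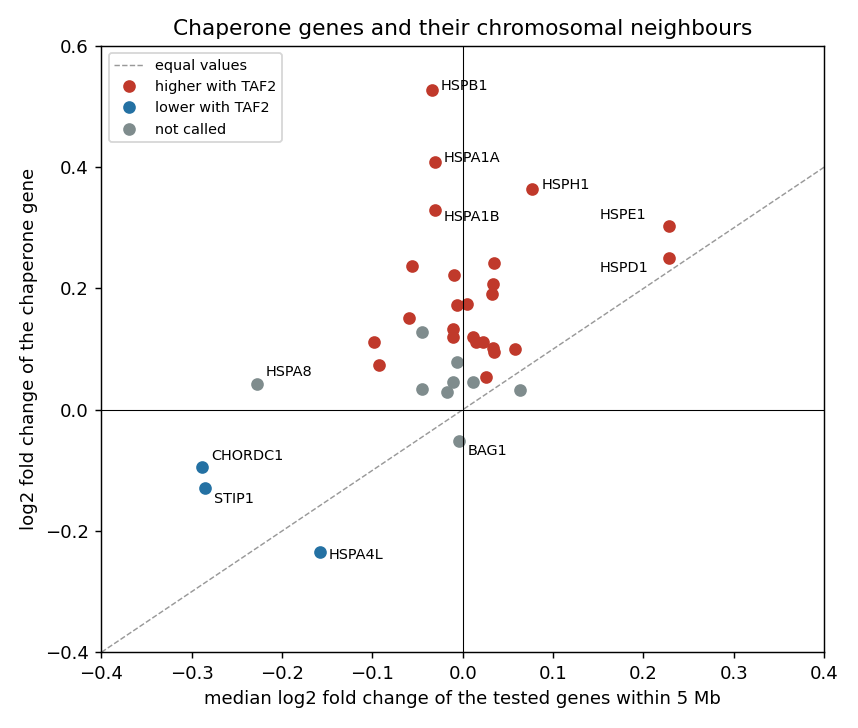
Log2 fold change of each of the 37 chaperone genes (vertical axis) against the median log2 fold change of the tested genes within 5 Mb (horizontal axis). The dashed line marks equal values, 34 genes lie above it, and colours show the call. HSPA8, STIP1 and CHORDC1 sit at the left, HSPD1 and HSPE1 at the right.

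The calls were also split by heat shock element. Of the 7 genes with a run of 3 units, 4 were higher (HSPD1, HSP90AB1, HSP90AA1 and DNAJA1), 1 was lower (CHORDC1) and 2 were not called (HSPA8 and DNAJB6). Of the 27 other genes with a window, 19 were higher, 2 lower and 6 not called. Of the 18 genes with a pair of units, 11 were higher, 3 lower (HSPA4L, STIP1 and CHORDC1) and 4 not called. Of the 16 without one 12 were higher, 0 lower and 4 not called. Over all tested genes, with or without such units, 20.6% were higher and 22.4% lower. The 3 lower genes lie on chromosomes 4 and 11, with neighbours at medians of -0.16, -0.29 and -0.29. Whether calls differ by heat shock element was not tested. The matches are to these letters in these windows only and say nothing of binding. Genes without a pair include BAG3, named above as a target of HSF1, and the heat-inducible HSPH1. The sequence TATAA, sought on the strand of the gene from -40 to -20, was present in 4 of the 34 genes (HSPA1A, HSPA1B, HSPA8 and HSP90AA1; 11.8%, against 4.94% of all genes), and 3 of these 4 were higher.

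Further genes of the same machinery were taken from 8 lists. Of 75 such companion genes 65 were tested, 18 were higher, 6 were lower and 41 were not called, and their median was 0.05 on the log2 scale. The shares, 27.7% higher and 9.23% lower, stand beside 20.6% and 22.4% of all tested genes, so the share higher was near the background. HSPA6, an HSP70 that is expressed only under strong heat shock, was at 0 to 0.0802 CPM, and DNAJA4, HSPB3 and HSPB9 were at 0 in every library. Of the other HSP70 genes HSPA12A, at 11.3 ± 0.864 CPM in eGFP and 16.0 ± 1.08 CPM in TAF2 libraries (n = 3 each, SD), rose by 0.50 (edgeR adjusted p = 1.05e-06), and HSPA14 by 0.17. Of the other J-domain genes 4 of 8 rose, among them DNAJB2 (0.22), DNAJC8 (0.09) and DNAJC5 (0.07), and 0 fell. None of the 3 tested small heat shock genes was called, and CRYAB was below 1 CPM. HSPBP1 (0.14) was the only one of 4 further exchange factors to rise.

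Of 14 other HSP90 cochaperones 4 were higher (28.6%) and 2 were lower (14.3%), against 20.6% and 22.4% of all tested genes. The share higher was thus near the background. NUDC (0.24, edgeR adjusted p = 2.16e-11), PPP5C (0.18) and FKBP8 (0.14) rose, and PPID (-0.10, edgeR adjusted p = 0.0483) fell. PPID lies on chromosome 4, with neighbours at a median of -0.24. Another list held prefoldin, which hands actin and tubulin chains to CCT, and other CCT and tubulin folding factors. Of its 14 tested genes 6 were higher (42.9%, against 20.6% of all tested genes) and 0 were lower. Those higher included PFDN4 (0.15), the only prefoldin subunit called, TBCB (0.13) and CCT6A. The mitochondrial import motor, cochaperones and proteases were 0 higher and 4 lower of 16, and these 25.0% are near the 22.4% of all tested genes that were lower. GRPEL1, the exchange factor of HSPA9, fell from 90.0 ± 2.15 to 73.6 ± 2.48 CPM (n = 3 each, SD; -0.29 on the log2 scale, edgeR adjusted p = 3.17e-09), CLPB had -0.28 and DNAJA3 -0.10. GRPEL1 lies on chromosome 4 and CLPB on chromosome 11, with neighbours at medians of -0.13 and -0.27. DNAJA3, on chromosome 16, had neighbours at a median of -0.02, and the other lower gene, AFG3L2 on chromosome 18 (-0.07), had neighbours at 0.09. HSBP1, a binding partner of HSF1, rose by 0.08. The count of rises among the 65 genes fell to 11 without TAF2 replicate 3, and that of falls to 3 without eGFP replicate 3. Without eGFP replicate 3 the calls of HSPA14 (edgeR adjusted p = 0.0986), DNAJA3 (0.0693), HSBP1 (0.0557) and PPID (0.245) were lost. Without TAF2 replicate 3 those of HSPA14 (0.0588), DNAJC8 (0.0561), DNAJC5 (0.104), HSPBP1 (0.0683) and HSBP1 (0.0682) were lost. Without eGFP replicate 1 those of DNAJC8 (0.0611), HSBP1 (0.0654) and PPID (0.0886) were lost, and without eGFP replicate 2 those of HSPBP1 (0.0518) and TBCB (0.0704). Without TAF2 replicate 1 PPID (0.278) was not called, nor without TAF2 replicate 2 were PPID (0.103), DNAJA3 (0.0726) and HSBP1 (0.0896).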

How the data were processed

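The values are expected counts as the authors deposited them, 1 per gene and library, which RSEM estimates by dividing reads that fit several genes. The submitters' processing notes list RSEM and hg38. Aligner, annotation release and strand setting were not given in the sources used here. Between 4.18% and 4.45% of values per library were not whole (not equal to a whole number as deposited), among them values of 5 of the 37 genes. Columns were matched to samples by library name.

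Counts were rounded, filtered by filterByExpr (12902 genes left), scaled by TMM and tested by edgeR 4.0.16 in R 4.3.3 (glmQLFit, robust, and glmQLFTest) with the group as the only term. P-values were adjusted (Benjamini-Hochberg) across the tested genes, and 0.05 was the limit for a call. CPM were computed from the rounded counts on scaled library sizes. SE and 95% intervals come from the quasi-likelihood F. The procedure was also run on counts simulated with the same dispersion for every gene. That run is no check of the small changes called here. Replicates varied beyond Poisson error, with chi-square values of 1.97 to 5.83 per degree of freedom. Genes were placed on GRCh38.p14 by RefSeq transcript accession (98.7% of those tested), and promoter windows come from RefSeq. Ratios between genes were compared by exact permutation (SciPy 1.17.1). Alternatives used DESeq2 1.42.0 and limma 3.58.1 among others. The members, companion lists and alternatives were chosen with earlier results of these data known. All 37 members are named, and of each companion list up to 3 called genes in each direction with the smallest p and at least 5 CPM. 1 companion gene that this rule names is not reported here. Other companion genes in the text, such as HSPA6, DNAJA4, HSPB3, HSPB9, CRYAB and AFG3L2, were chosen after their values were seen. Whether same-numbered libraries were paired is not stated, and their deviations correlated at -0.045, -0.091 and -0.103.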

Additional observations from a re-analysis of the deposited data

How the results depend on the processing

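Across 15 alternative fits 0 of the 37 genes changed direction, and of the 28 called genes 24 stayed past the threshold wherever they were tested, except in the test against 1.2-fold. The number higher ranged from 23 to 27 and the number lower from 2 to 3 over scaling, filter, DESeq2, limma-voom, the replicate block and leaving out each library. The test against 1.2-fold called 4 higher and 0 lower members and 1243 genes in all (467 higher and 776 lower), against 5548 (2662 and 2886), and under it TAF2 (log2 fold change 0.36) had adjusted p = 0.0518. Leaving out the genes of chromosomes 4 and 11 left 33 members, 24 higher and 0 lower, because the 3 lower members lie there. With numbers as a replicate block 5250 genes were called, 24 members higher and 3 lower. PTGES3 (adjusted p = 0.0865) and the companion genes HSBP1 (0.0560) and PPID (0.0570) lost their calls under the block, which left 16 companion genes higher and 4 lower, against 18 and 6. PPID also lost its call with RLE (0.0598), upper-quartile scaling (0.0959), all genes kept (0.0844), DESeq2 (0.168) and limma-voom (0.0624), and HSBP1 with DESeq2 (0.0856) and without chromosomes 4 and 11 (0.0958), where DNAJC5 (0.0615) was lost too and 14 companion genes were higher and 3 lower. Deviations of same-numbered libraries correlated at -0.045, -0.091 and -0.103. With 3 libraries against 3 the ratios between genes cannot pass 0.05, and with the block the smallest p is 0.25. Called genes fell to 4307 with DESeq2, where genes with no adjusted p are not counted. The common dispersion over the tested genes corresponded to a coefficient of variation of 2.75% among libraries that may be technical replicates. Intervals and calls came from the quasi-likelihood fit of each gene.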
